A study of Mus musculus with 47 samples.

Results

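The 49 protein-coding mouse genes for Wnt ligands, their receptors and their antagonists were followed in medullary thymic epithelial cells (mTECs) that lacked Aire, the Polycomb protein EED, or both. They were chosen by GRCm38 symbol alone (Wnt, Fzd, Sfrp, Dkk and Rspo followed by a number, Lgr4 to Lgr6, Frzb, Wif1, Axin2, Lef1 and Tcf7) out of 55471 genes listed. The rule used no measured value, although the gene families were picked with earlier results of these data known. They comprised 19 ligands, 4 R-spondins, 3 R-spondin receptors (Lgr4, Lgr5 and Lgr6), 10 Frizzled receptors, 10 secreted antagonists and 3 genes of the nuclear response (Lef1, Tcf7 and Axin2). RNA was sequenced from CD45-negative, EpCAM-positive, Ly51-negative cells of C57BL/6 thymus, split into mTEChi (high MHC class II, the more mature cells) and mTEClo (low MHC class II). The adult libraries were mTEChi WT (n = 7), mTEClo WT (n = 8), mTEChi AireKO (n = 4) and mTEClo AireKO (n = 4), from WT mice of 4 to 5 weeks and AireKO mice of 5 to 6 weeks. All adult AireKO libraries came from males. The neonatal mTEChi libraries were Ctrl (n = 5, 1 to 6 days old), EEDcKO (n = 3, 1 to 6 days), AireKO (n = 3, 4 to 6 days) and AireEEDdKO (n = 3, 4 to 6 days). The neonatal mTEClo libraries were Ctrl (n = 3, 1 to 3 days), EEDcKO (n = 4, 1 to 6 days) and AireEEDdKO (n = 3, 4 to 6 days), with no AireKO group. EEDcKO and AireEEDdKO mice carried EED-floxed alleles deleted by Foxn1-Cre, which acts in thymic epithelium at large and not in mTECs alone. Several neonatal libraries pooled males and females. No EEDcKO library was labelled male alone, against 3 of 5 mTEChi Ctrl and 1 of 3 mTEClo Ctrl libraries. The alleles carried by Ctrl mice are not given in the sources used here.

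Wnt proteins are secreted ligands that bind Frizzled receptors together with the co-receptors LRP5 and LRP6, which stabilizes β-catenin and lets it act with TCF and LEF factors on DNA. R-spondins bind LGR4, LGR5 and LGR6 and strengthen the signal by keeping Frizzled receptors on the cell surface, whereas Dickkopf proteins block the co-receptors and the Sfrp family, Frzb and Wif1 bind Wnt ligands outside the cell. Axin2, a negative regulator, is itself a common target of the pathway, and Wnt signalling takes part in the growth and maintenance of thymic epithelium. EED belongs to the core of the Polycomb repressive complex PRC2, which deposits H3K27me3 on silenced and often CG-rich promoters of developmental genes. Aire lets mature mTECs transcribe genes of other tissues.

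RefSeq promoters (250 bases before to 50 bases after the annotated start, GRCm38.p6) were held for 34 of the 49 genes, and 4 are shown as examples of the patterns described, picked with their values known. Each is written 5′ to 3′ in lower case with every CG dinucleotide in capitals. Wnt6 (chr1:74771642-74771941, plus strand, 31 CG) and Wnt11 (chr7:98834862-98835161, plus strand, 45 CG) were higher in all 3 comparisons that removed EED. Rspo4 (chr2:151842677-151842976, plus strand, 31 CG) and Wnt8b (chr19:44493222-44493521, plus strand, 6 CG) were lower in AireKO mTEChi at both ages.
Wnt6: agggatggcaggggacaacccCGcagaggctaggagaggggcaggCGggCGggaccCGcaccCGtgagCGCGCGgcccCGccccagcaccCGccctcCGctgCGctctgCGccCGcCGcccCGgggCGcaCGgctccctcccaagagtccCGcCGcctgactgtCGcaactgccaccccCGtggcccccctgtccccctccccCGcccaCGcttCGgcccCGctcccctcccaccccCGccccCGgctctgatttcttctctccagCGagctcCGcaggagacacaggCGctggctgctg
Wnt11: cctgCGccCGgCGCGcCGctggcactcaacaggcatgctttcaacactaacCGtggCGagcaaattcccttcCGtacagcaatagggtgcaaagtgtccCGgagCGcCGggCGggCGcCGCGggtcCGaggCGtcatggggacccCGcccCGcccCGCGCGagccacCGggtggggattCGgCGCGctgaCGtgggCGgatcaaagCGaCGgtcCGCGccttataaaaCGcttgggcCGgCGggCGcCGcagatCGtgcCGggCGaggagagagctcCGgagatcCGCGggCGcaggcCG
Rspo4: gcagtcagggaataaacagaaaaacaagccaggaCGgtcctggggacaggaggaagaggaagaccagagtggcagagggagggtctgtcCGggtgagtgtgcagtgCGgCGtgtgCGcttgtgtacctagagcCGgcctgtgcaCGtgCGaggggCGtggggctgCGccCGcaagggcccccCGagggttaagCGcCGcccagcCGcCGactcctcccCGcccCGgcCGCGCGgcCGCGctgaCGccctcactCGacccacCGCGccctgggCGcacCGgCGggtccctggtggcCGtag
Wnt8b: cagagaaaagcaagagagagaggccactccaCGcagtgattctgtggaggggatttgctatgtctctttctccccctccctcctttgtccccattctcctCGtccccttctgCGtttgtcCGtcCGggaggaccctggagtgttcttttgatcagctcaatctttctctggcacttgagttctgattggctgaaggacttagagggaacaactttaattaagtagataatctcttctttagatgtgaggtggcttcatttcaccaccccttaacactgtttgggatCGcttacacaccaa
Where a gene had several starts, the one with most CG was taken. The 34 members with an entry had a median of 28 CG dinucleotides per 300 bases (range 6 to 58) against a median of 8 over 27025 RefSeq genes. The median was 30 for the 4 of 7 genes with an entry among those higher in every EED comparison, and 26.5 for the 20 of 27 with an entry among those higher in no EED comparison. For the 7 of 12 with an entry among those lower without Aire at both ages the median was 24. The TCF/LEF heptamers CTTTGAA and CTTTGAT were searched on both strands at every start of a gene. They lay at any start in 3 of the 34 members (Dkk1, Wnt5b and Wnt11, 8.824%) against 9.883% of all RefSeq genes. In Wnt5b the start with the motif held 7 CG and was not the most CG-rich. The Axin2 window held neither.

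Library totals ran from 1602125 to 3938588 counts in adults and from 1578579 to 4817418 in neonates, and levels are given as CPM, that is, counts divided by a scaled library size. For the targeted genes, adult mTEChi of WT mice held 818 ± 56.02 CPM (SD, n = 7) of Aire and those of AireKO mice 29.3 ± 11.6 CPM (SD, n = 4). In neonatal mTEChi Aire averaged 619 CPM in Ctrl, 821 in EEDcKO, 70.6 in AireKO and 21.6 in AireEEDdKO. Neonatal mTEChi held 29.1 ± 7.93 CPM (SD, n = 5) of Eed in Ctrl and 14.8 ± 4.63 CPM (SD, n = 3) in EEDcKO. It averaged 39.5 CPM in AireKO and 13.6 in AireEEDdKO, and in neonatal mTEClo 24.2 CPM in Ctrl, 15.2 in EEDcKO and 15.2 in AireEEDdKO. Counts cover the whole gene, so reads outside the deleted parts are included. Such reads and incomplete deletion cannot be told apart here. Cd80, a maturation marker, averaged 203 CPM in adult mTEChi WT and 20.2 CPM in mTEClo WT, and Epcam averaged between 182 and 317 CPM in every group. Mitochondrial genes had 0 counts in the 4 mTEChi libraries of adult AireKO mice and in replicates 3 and 4 of their mTEClo, unlike every other library. Genotype and this kind of library therefore cannot be told apart in adult mTEChi. In bulk RNA, fewer cells that express a gene and less RNA per cell cannot be told apart. Nothing in the labels says whether libraries of a group came from separate animals, so p-values measure the spread between these libraries. The edgeR filter on low counts kept 40 of the 49 genes in adults and 45 in neonates, 40 of them in both tables. Wnt1, Wnt8a, Dkk4 and Wif1 were tested in neither table, and Wnt3a, Wnt5b, Wnt16, Fzd9 and Sfrp2 only in neonates. A gene is called higher or lower at a Benjamini-Hochberg adjusted p under 0.05 over all tested genes and a change of at least 2-fold.

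Receptors, the antagonist Sfrp1 and Tcf7 made up the most abundant members. In adult mTEChi WT the highest levels per kilobase of exon were those of Tcf7 (49.7 CPM per kb), Fzd6 (43.5), Sfrp1 (39.2), Fzd1 (25.2), Lgr4 (20.8) and Wnt10b (19.4). In adult mTEClo WT they were those of Sfrp1 (76.8 CPM per kb), Fzd7 (41.4), Lgr4 (34.4), Fzd6 (31.95) and Wnt4 (21.1). Wnt4, a ligand with known roles in thymus development, was thus the leading ligand of the immature fraction and Wnt10b that of the mature one. Neonatal mTEChi Ctrl cells were led by the same 3 genes as adult mTEChi, Tcf7 (56.8 CPM per kb), Fzd6 (42.98) and Sfrp1 (38.9).

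Between the fractions of adult WT mice, 21 of the 40 tested members were called higher in mTEChi and 7 lower, beside 23.7% and 12.4% of all tested genes. The median log2 fold change was 1.14 over the members and 0.004 over all genes. Higher were 10 of 14 ligands, all 4 R-spondins, 4 of 7 antagonists, Lgr6, Fzd1 and Tcf7, whereas 4 of 9 Frizzled receptors were lower. Wnt8b, a ligand best known from the embryonic forebrain, lay between 18.9 and 27.9 CPM (median 23.2) in mTEChi and between 0 and 1.91 CPM (median 0.390) in mTEClo (log2 fold change 5.38, SE 0.30, edgeR adjusted p 1.9e-15). Dkk1, the founding Dickkopf antagonist, lay between 6.78 and 13.8 CPM (median 9.06) in mTEChi and between 0 and 0.610 CPM (median 0.131) in mTEClo (log2 fold change 5.32, SE 0.36, edgeR adjusted p 1.2e-12). Rspo2 lay between 5.71 and 11.6 CPM (median 7.55) in mTEChi and between 0 and 1.91 CPM (median 0) in mTEClo (log2 fold change 4.66, SE 0.45, edgeR adjusted p 2.8e-10). In these 3 genes the libraries of the fractions did not overlap. Wnt9b (log2 fold change 5.15, SE 0.49, edgeR adjusted p 2.4e-10), Rspo4 (4.44, adjusted p 7.4e-10), Wnt2 (4.30, 4e-09), Wnt7a (4.28, 1e-09) and Dkk2 (3.99, 1.1e-11) differed in the same direction. The receptor Fzd2 went the other way, at between 2.40 and 7.14 CPM (median 4.20) in mTEChi against between 35.9 and 53.4 CPM (median 47.9) in mTEClo (log2 fold change −3.25, SE 0.15, edgeR adjusted p 6.9e-17). Dkk3, a divergent Dickkopf protein, was also lower in mTEChi (log2 fold change −2.47, SE 0.17, edgeR adjusted p 1.7e-13), as were Fzd3 (−1.64), Wnt4 (−1.31), Fzd8 (−1.25), Fzd7 (−1.21) and Wnt5a (−1.19). Genes of other cell types moved with the fractions. The sum of 12 thymocyte genes was 74.6 to 95.2 CPM in mTEChi and 17.8 to 28.6 CPM in mTEClo (6 of 7 tested higher, 1 lower), and that of 8 myeloid genes 290.1 to 356 CPM and 39.8 to 69.3 CPM (7 of 7 tested higher). The sum of 6 tuft cell genes was 212 to 326 CPM in mTEChi and 1609.6 to 2084 CPM in mTEClo (6 of 6 lower), and none of these genes was at 0 throughout a group. Their part in the differences was not tested.

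In neonatal Ctrl mice 13 of 45 members were called higher in mTEChi and 5 lower, beside 13.8% and 6.92% of all tested genes, so that 28.9% and 11.1% of the members stood against these shares. Rspo2, Rspo3, Rspo4, Lgr5, Lgr6, Dkk1, Dkk2, Frzb, Tcf7 and 4 ligands (Wnt8b, Wnt10a, Wnt10b and Wnt11) were higher. Dkk1 had 8.44, 16.2, 15.1, 16.4 and 20.6 CPM in mTEChi and 1.69, 3.16 and 1.13 CPM in mTEClo (log2 fold change 2.88, SE 0.89, edgeR adjusted p 0.015). Fzd3 (log2 fold change −2.02, SE 0.21, edgeR adjusted p 4.4e-07), Fzd2 (−1.98), Wnt4 (−1.65), Fzd8 (−1.09) and Wnt16 were lower in mTEChi. The count fell to 8 called members without mTEClo Ctrl replicate 3. The mTEChi libraries were 1 to 6 and the mTEClo libraries 1 to 3 days old, and with age as a term 16 of the 18 calls remained, without Wnt10b and Fzd8. The mTEClo Ctrl libraries summed 1907 to 2906 CPM over 8 genes of cortical thymic epithelium, against 627 to 1002 CPM in mTEChi Ctrl, although cortical (Ly51-positive) cells had been gated out (5 of 8 genes lower in mTEChi, none higher). Myeloid genes summed 304 to 357 CPM in mTEChi and 116 to 196 CPM in mTEClo (5 of 8 higher, none lower). The part of these cells in the fraction differences was not tested.

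In adult mTEChi without Aire, R-spondins, several ligands and most secreted antagonists were at lower levels. Compared with WT, 18 of 40 tested members were called lower, beside 17.8% of all tested genes, and 1 was called higher, beside 5.63%. The median log2 fold change was −0.76 over the members and −0.01 over all genes, and the former was the same with the genes at 0 placed at their bounds. All 4 R-spondins, 5 of 7 antagonists, 6 of 14 ligands, Lgr6, Fzd3 and Fzd4 were lower. Tcf7 was the member called higher.

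**Figure D1:**
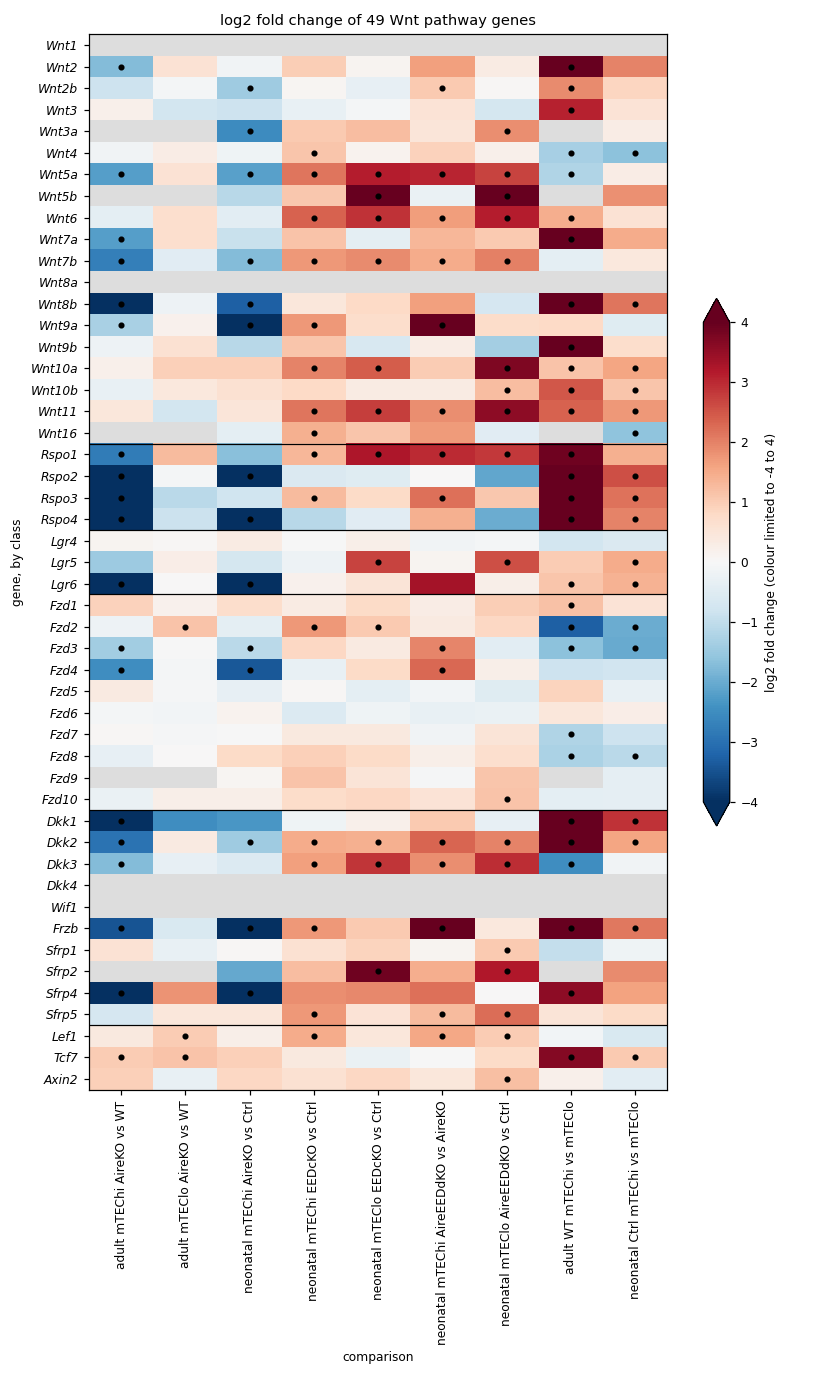
Heat map of log2 fold changes of the members (rows, grouped by class) in each comparison (columns), limited to −4 to 4 in colour, with a dot where a member was called and grey where it was not tested. The R-spondins and most antagonists lie on the lower side in the columns for loss of Aire in mTEChi, and the columns for loss of EED hold dots on the higher side only.

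All 4 R-spondins fell. Summed over the 4 genes, their transcripts made up 25.0 ± 3.98 CPM (SD, n = 7) in WT mTEChi of adults and 0.818 ± 0.605 CPM (n = 4) in those of AireKO mice. Rspo4 (GRCm38 chromosome 2, 151842927 to 151874668), known for its role in nail growth, lay between 5.40 and 11.2 CPM (median 10.3) in WT and had 0 counts in all 4 AireKO libraries, at least 30.2-fold lower when 3 counts are allowed over the group (edgeR adjusted p 7.6e-08). Rspo2 (chromosome 15, 43020794 to 43170826) had 156 counts over the WT and 2 over the AireKO libraries, a ratio of 42.04 (95% counting interval 11.4 to 350.2) (edgeR adjusted p 2.5e-07). Rspo3 had 88 and 2 counts, a ratio of 23.7 (95% counting interval 6.37 to 199). Rspo1 fell as well (log2 fold change −2.80, SE 0.58, edgeR adjusted p 0.00017), with overlapping libraries. Their receptor Lgr6 (chromosome 1, 134983301 to 135105276), a marker of stem cells in skin, lay between 10.5 and 18.9 CPM (median 16.8) in WT and at 0, 0, 0.685 and 0.418 CPM in AireKO, a ratio of 52.8 (95% counting interval 17.9 to 258) (edgeR adjusted p 8.2e-10). The other receptors of this family were not called. Lgr4 had 122 ± 9.20 CPM (SD, n = 7) in WT and 133 ± 9.84 CPM (SD, n = 4) in AireKO (log2 fold change 0.12, SE 0.08, edgeR adjusted p 0.2), and Lgr5, a marker of intestinal stem cells, was at 0, 0.818, 2.40 and 3.34 CPM in AireKO against between 0 and 11.1 CPM (median 5.40) in WT (log2 fold change −1.45, SE 0.67, edgeR adjusted p 0.07).

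Among the ligands, Wnt8b (chromosome 19, 44493472 to 44514273) lay between 18.9 and 27.9 CPM (median 23.2) in WT and at 1.32, 0.818, 0.685 and 0.418 CPM in AireKO (log2 fold change −4.83, SE 0.38, edgeR adjusted p 5.3e-11). Wnt5a (chromosome 14, 28504750 to 28527448), a ligand that often signals without β-catenin through ROR receptors, lay between 9.60 and 18.1 CPM (median 11.8) in WT and at 0.878, 2.46, 2.74 and 4.59 CPM in AireKO (log2 fold change −2.21, SE 0.30, edgeR adjusted p 5.7e-07). Wnt7b lay between 9.001 and 11.8 CPM (median 10.9) in WT and at 1.32, 0.409, 3.08 and 1.25 CPM in AireKO (log2 fold change −2.73, SE 0.27, edgeR adjusted p 3.4e-09). No AireKO library reached the WT range in any of these 3 genes. Wnt10b, the leading ligand of mTEChi, was not called (66.1 ± 17.5 CPM (SD, n = 7) in WT, 54.5 ± 19.05 CPM (SD, n = 4) in AireKO, log2 fold change −0.30, SE 0.35, edgeR adjusted p 0.48). Of the antagonists, Dkk1 lay between 6.78 and 13.8 CPM (median 9.06) in WT and at 0.439, 0.818, 0.342 and 0.418 CPM in AireKO (log2 fold change −4.19, SE 0.43, edgeR adjusted p 1.5e-08). Dkk2 had 23.3 ± 4.09 CPM (SD, n = 7) and 2.94 ± 1.22 CPM (SD, n = 4) (log2 fold change −2.96, SE 0.39, edgeR adjusted p 3.7e-07). Sfrp4 had 83 counts in WT and 0 in AireKO, at least 14.9-fold lower. Sfrp1, which was the most abundant antagonist, stood apart from these at 172 ± 17.1 CPM (SD, n = 7) in WT and 259 ± 17.6 CPM (SD, n = 4) in AireKO (log2 fold change 0.59, SE 0.09, edgeR adjusted p 2.4e-06). Fzd4, a receptor for Wnt and norrin, fell from 10.0 ± 3.51 CPM (SD, n = 7) to 1.78 ± 0.190 CPM (SD, n = 4) (log2 fold change −2.48, SE 0.36, edgeR adjusted p 1.4e-06).

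When the kind of library was added as a term, so that the mTEClo AireKO libraries carried its estimate, 12 members were called (9 lower, 3 higher), 10 of them shared with the 19. Wnt5a, Wnt7b, Wnt8b, Lgr6, Fzd3, Fzd4, Dkk2, Dkk3 and Sfrp4 were lower under both fits, and Tcf7 was higher under both. The R-spondins, Wnt2, Wnt7a, Wnt9a, Dkk1 and Frzb lost their calls there and Axin2 and Wnt10b gained one. In neonates, where every library had mitochondrial counts, 12 of these 18 members were called lower as well, an overlap not counted over all tested genes. The sum of 10 mesenchymal genes was 228 to 248 CPM in adult mTEChi AireKO and 406 to 605 CPM in WT (6 of 9 tested lower, 1 higher, none at 0 in either group), and the part of mesenchymal transcripts in the falls was not tested.

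**Figure D2:**
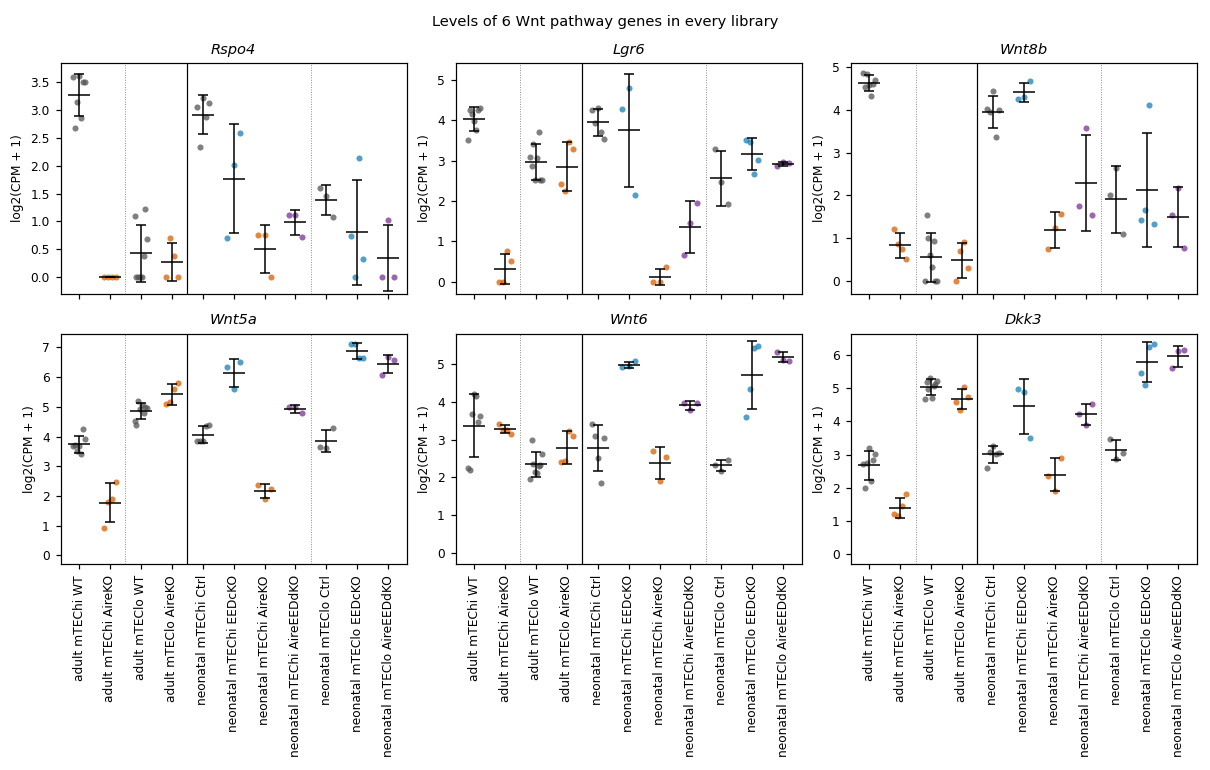
Levels of Rspo4, Lgr6, Wnt8b, Wnt5a, Wnt6 and Dkk3 in every library as log2(CPM + 1), by group, with bars for the mean and SD. Rspo4 and Lgr6 sit near 0 in AireKO mTEChi of both ages, and Wnt5a, Wnt6 and Dkk3 stand higher in EEDcKO and AireEEDdKO than in Ctrl libraries.

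Loss of Aire in neonatal mTEChi gave 14 of 45 members called lower, beside 12.8% of all tested genes, and 0 called higher, beside 3.56%. The members' median log2 fold change was −0.70 against 0.03 over all genes. In the higher direction 7 members had an unadjusted p under 0.05, and DESeq2 called 0. The 14 were Wnt2b, Wnt3a, Wnt5a, Wnt7b, Wnt8b and Wnt9a, Rspo2 and Rspo4, Lgr6, Fzd3 and Fzd4, and Dkk2, Frzb and Sfrp4. Of these, 12 were also called lower in adults, which is 12 of 18 adult and 12 of 14 neonatal calls, from mice and libraries that the ages did not share. The overlap over all tested genes was not counted, so it is not known whether the members share more calls than other genes.

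Lgr6 was at 18.0, 14.4, 18.98, 12.1 and 10.5 CPM in Ctrl and 0, 0 and 0.283 CPM in AireKO, a ratio of 92.1 (95% counting interval 16.4 to 3654) (edgeR adjusted p 3.7e-05). Rspo2 was at 6.19, 8.66, 5.78, 7.66 and 7.96 CPM in Ctrl and 0.685, 0 and 0.283 CPM in AireKO, a ratio of 23.3 (95% counting interval 6.31 to 195). Rspo4 was at 7.31, 4.04, 8.25, 6.34 and 7.73 CPM in Ctrl and 0.685, 0.689 and 0 CPM in AireKO, a ratio of 22.7 (95% counting interval 6.13 to 189.9). The AireKO values of the 3 genes all lay below the lowest Ctrl library. Wnt8b was at 15.2, 14.4, 20.6, 9.24 and 14.99 CPM in Ctrl and 0.685, 1.38 and 1.98 CPM in AireKO (log2 fold change −3.27, SE 0.82, edgeR adjusted p 0.0049). Wnt5a was at 13.5, 13.3, 13.5, 19.3 and 20.1 CPM in Ctrl and 4.11, 2.75 and 3.67 CPM in AireKO (log2 fold change −2.18, SE 0.33, edgeR adjusted p 6.9e-05). Fzd4 (log2 fold change −3.40, SE 0.61, edgeR adjusted p 0.00031) and Wnt7b (log2 fold change −1.72, SE 0.44, edgeR adjusted p 0.0053) fell too. Frzb, an Sfrp relative that binds Wnt, had 81 counts in Ctrl and 0 in AireKO, at least 11.5-fold lower, and Sfrp4 had 64 and 0 counts, at least 9.05-fold lower, a call lost without any 1 of the 3 AireKO replicates (−6.75, −6.79 and −6.71 for replicates 1, 2 and 3). Dkk2 was called at −1.43 (adjusted p 0.011) and lost the call without AireKO replicate 2 (−1.18) or 3 (−1.08). The mesenchymal sum was 352 to 447 CPM in AireKO and 526 to 569.97 CPM in Ctrl (5 of 10 genes lower, 2 higher), with Pdgfra, a defining marker, at 0 in all AireKO libraries. The groups also differed in age (4 to 6 days against 1 to 6 days), and with age as a term 14 members were called, 13 of them shared (Fzd3 lost, Tcf7 gained as higher).

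**Figure D3:**
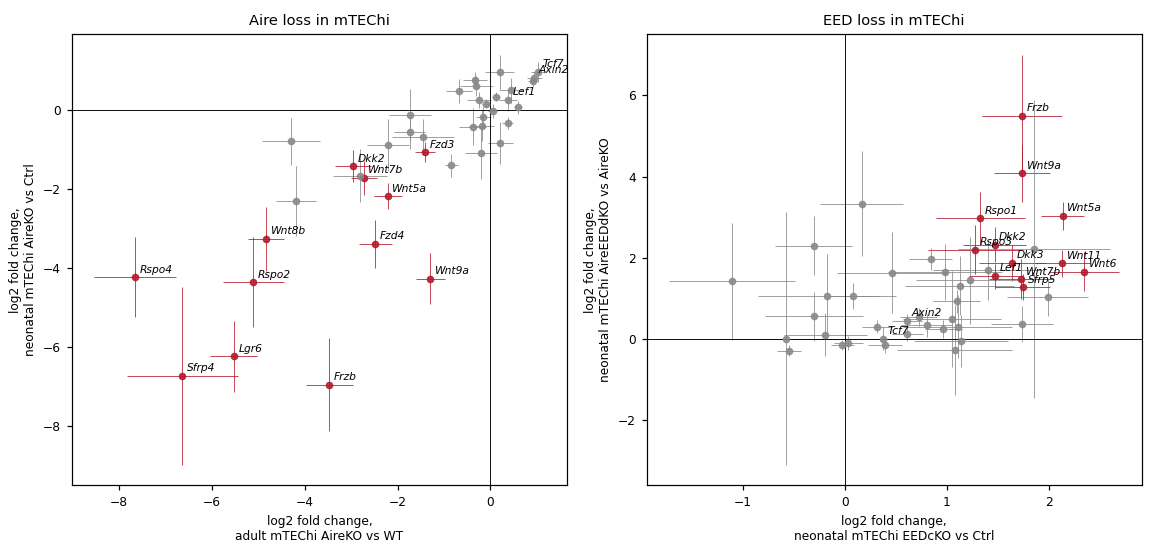
Log2 fold changes of the members with SE bars, adult against neonatal loss of Aire in mTEChi (left) and loss of EED with Aire against loss of EED without Aire in neonatal mTEChi (right), with members called in both comparisons in red. Red points lie in the lower left quadrant of the left panel and in the upper right quadrant of the right panel.

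Fewer members were called in adult mTEClo without Aire. In AireKO 3 of 40 members were called higher, beside 4.42% of all tested genes, and 0 lower, beside 3.88% (3 at an unadjusted p under 0.05, 0 by DESeq2). Fzd2 lay between 35.9 and 53.4 CPM (median 47.9) in WT and at 106, 115, 96.5 and 94.2 CPM in AireKO (log2 fold change 1.15, SE 0.12, edgeR adjusted p 1.1e-07), and the groups did not overlap. Tcf7 and Lef1 were the other members called. The sum of 8 cortical genes was 496 to 677 CPM in mTEClo AireKO and 282 to 364 CPM in WT (5 of 8 higher, none lower). Myeloid genes summed 108 to 147 CPM and 39.8 to 69.3 CPM (3 of 7 tested higher, 1 lower). Mesenchymal genes summed 359 to 426 CPM and 538 to 686 CPM (1 of 9 tested higher, 1 lower). The part of these cells in the 3 calls was not tested. The difference of the Aire effect between the fractions was tested in its own right, as the log2 fold change in mTEChi minus that in mTEClo. It was called below 0 for 16 of 40 members, beside 11% of all tested genes, and above 0 for Axin2, beside 2.7%. The negative differences included Lgr6 (log2 difference −5.55, SE 0.63, edgeR adjusted p 2.5e-07), Wnt8b (log2 difference −4.63, SE 1.09, edgeR adjusted p 0.0023), Dkk2 (log2 difference −3.33, SE 0.74, edgeR adjusted p 0.0013), Wnt5a (log2 difference −2.80, SE 0.34, edgeR adjusted p 8.3e-07) and Fzd4 (log2 difference −2.39, SE 0.43, edgeR adjusted p 0.00012). Rspo1, Rspo2, Rspo4 and Sfrp4 were among them as well, with few or no counts in AireKO mTEChi. Summed over the 4 R-spondins, mTEClo held 1.17 ± 0.70 CPM (SD, n = 8) in WT and 1.04 ± 0.303 CPM (SD, n = 4) in AireKO. At such levels a fall in mTEClo could hardly have been called, and the effect there is poorly estimated. Wnt8b lost this call without mTEClo AireKO replicate 3 (−3.95).

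The maturation pattern of adult AireKO mice was therefore examined separately, within that genotype. In AireKO 11 of 40 members were called higher in mTEChi and 11 lower, beside 18.5% and 16.7% of all tested genes. R-spondins were absent from both directions. Wnt9b had 63 counts in mTEChi and 3 in mTEClo, a ratio of 22.8 (95% counting interval 7.47 to 114). Wnt11 was at 25.9, 24.96, 18.8 and 14.2 CPM in mTEChi and 2.71, 1.25, 1.49 and 1.70 CPM in mTEClo (log2 fold change 3.55, SE 0.40, edgeR adjusted p 1.2e-08). Wnt3 (log2 fold change 4.03, SE 0.48, edgeR adjusted p 3.5e-08), Tcf7 (log2 fold change 3.54, SE 0.19, edgeR adjusted p 4.3e-15), Fzd1 (1.92), Axin2 (1.43) and Fzd5 (1.29) were higher in mTEChi. Wnt10b was higher too (1.75) but split in mTEClo by the kind of library, at 28.1 and 38.8 CPM with and 4.17 and 5.34 CPM without mitochondrial counts. Fzd2 (log2 fold change −4.59, SE 0.21, edgeR adjusted p 9e-17), Wnt5a (log2 fold change −3.99, SE 0.28, edgeR adjusted p 8.1e-13), Dkk3 (log2 fold change −3.87, SE 0.29, edgeR adjusted p 2.9e-12), Fzd4 (−3.23), Fzd3 (−3.04), Wnt7b (−2.65) and Wnt4 (−1.77) were lower in mTEChi, as was Lgr6, with 3 counts against 84, a ratio of 25.7 (95% counting interval 8.51 to 127). Within the 6 libraries of the kind without mitochondrial counts, a comparison added after seeing the data, 19 of the 22 calls remained, all but Wnt2, Dkk1 and Sfrp4.

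In neonatal mTEChi without EED, the members called higher were mostly ligands and secreted antagonists. In EEDcKO 16 of 45 members were called higher than in Ctrl, beside 8.48% of all tested genes, and 0 lower, beside 5.4% (1 at an unadjusted p under 0.05, 0 by DESeq2). The median log2 fold change was 1.05 over the members and −0.001 over all genes. Higher were 8 of 17 ligands, 4 of 8 antagonists, Rspo1, Rspo3, Lef1 and 1 of 10 Frizzled receptors (Fzd2), the last near the share of all genes. Wnt6 (chromosome 1, 74771892 to 74785322) was at 9.56, 7.51, 4.68, 2.64 and 7.26 CPM in Ctrl and 29.1, 29.96 and 32.7 CPM in EEDcKO (log2 fold change 2.35, SE 0.34, edgeR adjusted p 3e-05). Wnt5a was at 13.5, 13.3, 13.5, 19.3 and 20.1 CPM in Ctrl and 79.3, 47.9 and 90.3 CPM in EEDcKO (log2 fold change 2.14, SE 0.21, edgeR adjusted p 4.1e-07). Wnt11 (chromosome 7, 98835112 to 98855195), a ligand of cell movement and polarity, was at 5.63, 6.93, 11.3, 5.02 and 10.1 CPM in Ctrl and 23.5, 41.99 and 38.4 CPM in EEDcKO (log2 fold change 2.13, SE 0.28, edgeR adjusted p 8.3e-06). Every EEDcKO library exceeded every Ctrl library in these 3 ligands. Wnt10a, a ligand of skin and tooth, was at 10.1, 12.7, 11.6, 10.03 and 14.5 CPM in Ctrl and 31.6, 52.3 and 55.7 CPM in EEDcKO (log2 fold change 1.99, SE 0.40, edgeR adjusted p 0.00061). Wnt9a (log2 fold change 1.74, SE 0.28, edgeR adjusted p 7.2e-05), Fzd2 (log2 fold change 1.74, SE 0.30, edgeR adjusted p 0.00019), Sfrp5 (log2 fold change 1.75, SE 0.27, edgeR adjusted p 4.8e-05) and Frzb (log2 fold change 1.74, SE 0.39, edgeR adjusted p 0.002) rose by similar amounts. Rspo1 overlapped between the groups (4.50, 2.89, 3.03, 1.32 and 1.87 CPM in Ctrl, 8.67, 6.78 and 4.40 CPM in EEDcKO) and lost its call in 4 of 8 refits that each dropped 1 library (1.13 to 1.57), without Ctrl replicate 4 or 5 or EEDcKO replicate 1 or 2. Wnt16 and Rspo3 lost their calls in 6 of 8 and 6 of 8 such fits, and Wnt4 in 3 of 8 (without Ctrl replicate 2 or 3 or EEDcKO replicate 2). With sex as a term 14 of the 16 calls remained, without Wnt16 and Rspo3.

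**Figure D4:**
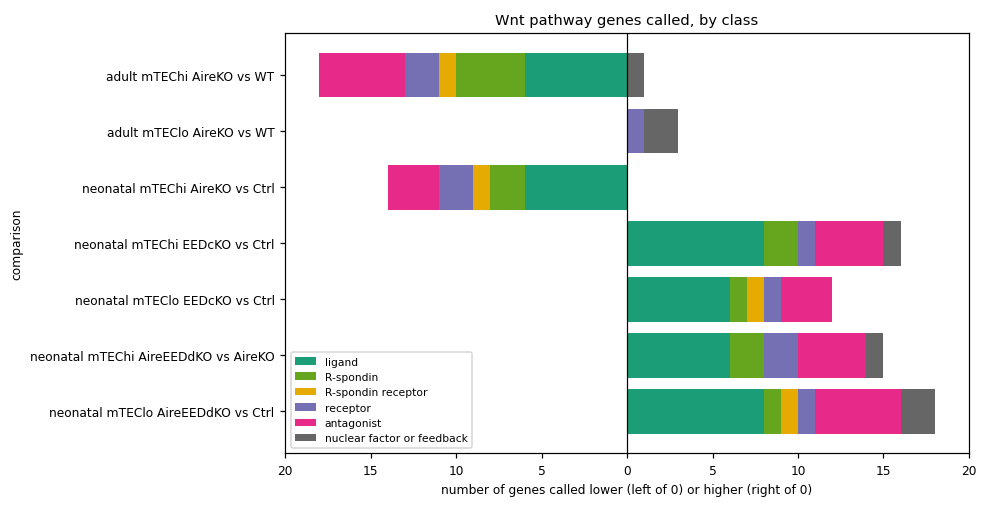
Number of members called higher (to the right) and lower (to the left) per class in each comparison. Calls for loss of EED lie on the higher side only, and calls for loss of Aire in mTEChi lie on the lower side except for Tcf7 in adults.

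In neonatal mTEClo 12 of 45 members were called higher in EEDcKO, beside 9.51% of all tested genes, and 0 lower, beside 6.22% (1 at an unadjusted p under 0.05, 0 by DESeq2). The members' median was 0.77 against −0.006 over all genes. Wnt5b had 0, 1.05 and 0.563 CPM in Ctrl and 14.5, 8.26, 21.5 and 20.2 CPM in EEDcKO (log2 fold change 4.84, SE 0.73, edgeR adjusted p 3.8e-05). Wnt5a had 11.5, 11.2 and 18.6 CPM in Ctrl and 138, 138, 99.6 and 98.7 CPM in EEDcKO (log2 fold change 3.14, SE 0.25, edgeR adjusted p 1.1e-08). Wnt6 had 4.05, 3.51 and 4.50 CPM in Ctrl and 11.1, 19.4, 41.8 and 43.7 CPM in EEDcKO (log2 fold change 2.88, SE 0.42, edgeR adjusted p 2.6e-05). The lowest EEDcKO library thus exceeded the highest Ctrl library in each of the 3. Rspo1 (chromosome 4, 124986430 to 125009099) had 1.01, 0.701 and 1.13 CPM in Ctrl and 16.5, 8.98, 6.82 and 4.80 CPM in EEDcKO (log2 fold change 3.24, SE 0.56, edgeR adjusted p 0.00015). Dkk3 (chromosome 7, 112116017 to 112159057) had 10.1, 6.31 and 7.31 CPM in Ctrl and 43.1, 33.4, 73.6 and 79.5 CPM in EEDcKO (log2 fold change 2.85, SE 0.36, edgeR adjusted p 4e-06). Lgr5 had 3.72, 3.86 and 5.63 CPM in Ctrl and 42.4, 26.6, 20.9 and 22.2 CPM in EEDcKO (log2 fold change 2.69, SE 0.48, edgeR adjusted p 0.00023). The groups were again separate in all 3 genes. Sfrp2 (log2 fold change 3.88, SE 0.73, edgeR adjusted p 0.00037) and Wnt11 (log2 fold change 2.77, SE 0.40, edgeR adjusted p 2.1e-05) were also higher, as were Wnt7b (1.88), Wnt10a (2.43), Dkk2 (1.44) and Fzd2 (1.04, lost without Ctrl replicate 1 at 0.86, Ctrl replicate 2 at 0.86 or EEDcKO replicate 2 at 0.97).

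EEDcKO replicates 1 and 2 of mTEClo were of the same ages as Ctrl (1 to 3 days) and replicates 3 and 4 were 6 and 4 days old. Replicates 3 and 4 also carry later sample numbers than replicates 1 and 2 and Ctrl, as do all mTEClo AireEEDdKO libraries. Age and this later-numbered set therefore cannot be told apart within mTEClo. Wnt5a was no lower at the matched ages (138 and 138 CPM) than at the older ones, whereas Wnt10a had 3.70 and 10.8 CPM at the matched ages, overlapping Ctrl, and 35.6 and 33.3 CPM at the older ones. With age as a term 13 members were called, the 12 and Wnt16. With sex as a term 11 of the 12 remained, without Fzd2. The sum of mesenchymal genes was 415 to 549 CPM in Ctrl and 1025 to 1504 CPM in EEDcKO (7 of 10 higher, none lower), and in mTEChi 526 to 569.97 CPM and 812 to 1109 CPM (3 of 10 higher, none lower). The cortical sum was 1907 to 2906 CPM in mTEClo Ctrl and 299.8 to 1044 CPM in EEDcKO (6 of 8 genes lower). In mTEChi it was 627 to 1002 CPM in Ctrl and 403 to 478 CPM in EEDcKO (1 of 8 lower, none higher), beside 1428 to 1567 CPM and 1935 to 2296 CPM over 8 genes of basal mTECs (3 of 8 higher, none lower), with no overlap in either sum. Of 8 myeloid genes 5 were lower in mTEChi EEDcKO. The part of these cell types in the Wnt differences was not tested.

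The same removal of EED was measured where Aire was absent. In mTEChi AireEEDdKO against AireKO, 15 of 45 members were called higher, beside 6.69% of all tested genes, and 0 lower, beside 2.78% (1 at an unadjusted p under 0.05, 0 by DESeq2). Both groups were of the same ages (4, 6 and 4 days). The median over the members was 1.05 and over all genes 0.03. Wnt5a was at 4.11, 2.75 and 3.67 CPM in AireKO and 31.2, 31.2 and 26.6 CPM in AireEEDdKO (log2 fold change 3.04, SE 0.34, edgeR adjusted p 2.9e-06). Dkk2 (chromosome 3, 132085292 to 132180304) was at 13.7, 2.75 and 4.52 CPM in AireKO and 46.5, 30.04 and 23.4 CPM in AireEEDdKO (log2 fold change 2.32, SE 0.43, edgeR adjusted p 0.00054). Fzd3, a receptor of axon guidance and planar polarity, was at 20.6, 14.5 and 22.6 CPM in AireKO and 65.9, 59.5 and 102 CPM in AireEEDdKO (log2 fold change 1.96, SE 0.27, edgeR adjusted p 3.1e-05). In these genes the groups did not overlap. Rspo1 (log2 fold change 2.97, SE 0.66, edgeR adjusted p 0.003), Dkk3 (log2 fold change 1.87, SE 0.44, edgeR adjusted p 0.0048), Wnt11 (log2 fold change 1.86, SE 0.33, edgeR adjusted p 0.0004) and Wnt6 (log2 fold change 1.66, SE 0.48, edgeR adjusted p 0.018) rose as well, and Rspo3 was called at 2.20 but not without AireKO replicate 2 (1.86) or 3 (1.86) or AireEEDdKO replicate 1 (1.95). Wnt6 lost its call without AireKO replicate 2 (1.48) or 3 (1.76) or AireEEDdKO replicate 3 (1.61). The mesenchymal sum was 352 to 447 CPM in AireKO and 631 to 818 CPM in AireEEDdKO (3 of 10 genes higher, none lower).

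Across the 3 comparisons that removed EED and shared no control library (mTEChi, mTEClo, and mTEChi without Aire), Wnt5a, Wnt6, Wnt7b, Wnt11, Rspo1, Dkk2 and Dkk3 were called higher in all 3. They made up 7 of 16, 7 of 12 and 7 of 15 of the respective calls, and 22 members were called in at least 1. How many of all tested genes were called in all 3 was not counted, so these shares have no background beside them. Wnt7b, a ligand of epithelial branching and bone, was the least stable, since its call without Aire was lost in 5 of 6 refits that each dropped 1 library (1.18 to 2.13), all but the one without AireKO replicate 3. The same call was lost with sex as a term. The comparison of AireEEDdKO with AireKO mTEChi has its AireKO libraries in common with the neonatal Aire comparison, so that low values in these libraries enter both, and levels are given side by side. Wnt9a had 1 count over the AireKO libraries and 2.35, 4.62 and 2.89 CPM in AireEEDdKO (log2 fold change 4.08, SE 0.70, edgeR adjusted p 0.00028). Frzb had 0 counts in AireKO and 2.35, 1.73 and 1.60 CPM in AireEEDdKO (edgeR adjusted p 0.014, lost without AireKO replicate 3 at adjusted p 0.077), beside 3.94, 3.47, 6.33, 4.75 and 6.32 CPM in Ctrl. Fzd4 had 0, 3.44 and 0.283 CPM in AireKO and 2.94, 2.89 and 7.70 CPM in AireEEDdKO, with overlap (log2 fold change 2.30, SE 0.73, edgeR adjusted p 0.031), and lost its call without AireKO replicate 1 (1.89) or 3 (1.49) or AireEEDdKO replicate 3 (1.55). Lgr6 was at 0, 0 and 0.283 CPM in AireKO and 0.589, 1.73 and 2.89 CPM in AireEEDdKO, called by DESeq2 and not by edgeR (log2 fold change 3.33, SE 1.30, edgeR adjusted p 0.081). Rspo2, Rspo4, Wnt8b and Sfrp4 were called by neither tool, with Rspo4 at 1.18, 1.16 and 0.642 CPM in AireEEDdKO, below every Ctrl library.

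AireEEDdKO mTEClo was compared with the same Ctrl libraries as EEDcKO mTEClo, and none of its libraries (4 to 6 days) matched them (1 to 3 days) in age. The AireEEDdKO libraries also carry the later sample numbers, so genotype, age and this set cannot be told apart here. Here 18 of 45 members were called higher, beside 12.4% of all tested genes, and 0 lower, beside 8.2% (1 at an unadjusted p under 0.05, 0 by DESeq2). Wnt10a had 69.7, 45.4 and 46.3 CPM in AireEEDdKO against 4.73, 3.16 and 3.94 CPM in Ctrl (log2 fold change 3.75, SE 0.54, edgeR adjusted p 1.7e-05). Wnt11 had 30.6, 28.1 and 27.3 CPM against 2.70, 2.46 and 1.69 CPM (log2 fold change 3.58, SE 0.40, edgeR adjusted p 8.1e-07). Wnt5b (log2 fold change 4.24, SE 0.77, edgeR adjusted p 0.00017), Sfrp2 (log2 fold change 3.20, SE 0.79, edgeR adjusted p 0.0026), Wnt6 (log2 fold change 3.13, SE 0.43, edgeR adjusted p 9.7e-06), Dkk3 (log2 fold change 2.96, SE 0.37, edgeR adjusted p 3e-06), Rspo1 (log2 fold change 2.82, SE 0.58, edgeR adjusted p 0.00062) and Wnt5a (log2 fold change 2.71, SE 0.25, edgeR adjusted p 1.1e-07) were higher as well. With age as a term, estimated over all neonatal groups, 19 members were called, the 18 and Fzd2. The mesenchymal sum was 934 to 1685 CPM in AireEEDdKO and 415 to 549 CPM in Ctrl (7 of 10 genes higher, none lower), and the cortical sum 355 to 634 CPM and 1907 to 2906 CPM (6 of 8 lower, none higher), and their part in these differences was not tested.

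The difference of the EED effect between settings was tested itself. Between mTEChi and mTEClo, 2 of 45 members had a smaller effect in mTEChi, beside 0.97% of all tested genes, and 0 a larger one, beside 0.614% (5 at an unadjusted p under 0.05, 0 by DESeq2). Lgr5 (log2 difference −2.88, SE 0.64, edgeR adjusted p 0.018) was at 6.19, 12.2 and 12.3 CPM in mTEChi EEDcKO against 7.88, 8.66, 7.43, 22.7 and 12.2 CPM in mTEChi Ctrl, whereas in mTEClo it rose. Lgr5 lost the call without mTEClo Ctrl replicate 1 (−2.73) or 2 (−2.76). Wnt5b (log2 difference −3.76, SE 0.99, edgeR adjusted p 0.048) lost its call in 13 of 15 refits that each dropped 1 library (−4.88 to −3.06). Between mTEChi without and with Aire, 0 of 45 members differed in the higher direction, beside 0.807% of all tested genes (7 at an unadjusted p under 0.05, 2 by DESeq2, Fzd3 and Fzd4), and 0 in the lower direction, beside 0.446% (4 at an unadjusted p under 0.05, 0 by DESeq2). The estimates were log2 difference 0.90, SE 0.42, edgeR adjusted p 0.29 for Wnt5a and log2 difference 1.64, SE 0.82, edgeR adjusted p 0.32 for Rspo1.

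Axin2 (chromosome 11, 108920349 to 108950783) passed the adjusted p in mTEChi without Aire at both ages and in both fractions of EEDcKO, with changes under 2-fold. In adult mTEChi it lay between 14.9 and 38.96 CPM (median 25.5) in WT and at 70.2, 58.5, 46.9 and 50.1 CPM in AireKO (log2 fold change 0.94, SE 0.16, edgeR adjusted p 2.2e-05). In adult mTEClo it was at 23.3, 21.9, 22.04 and 17.5 CPM in AireKO against 20.2 to 29.9 CPM in WT (log2 fold change −0.29, SE 0.18, edgeR adjusted p 0.26). The difference between the fractions was called (log2 difference 1.23, SE 0.25, edgeR adjusted p 0.00046) and kept its call in all 23 fits that left out a library. In neonatal mTEChi it was at 16.3, 16.7, 13.8, 20.6 and 16.2 CPM in Ctrl, 22.3, 31.5 and 21.7 CPM in EEDcKO, 28.1, 28.9 and 31.1 CPM in AireKO and 40.03, 41.6 and 38.8 CPM in AireEEDdKO. The AireKO difference had an adjusted p of 0.00042 (log2 fold change 0.82), the EEDcKO difference one of 0.0032 (0.61) and that between AireEEDdKO and AireKO one of 0.068 (0.44), all by edgeR. In neonatal mTEClo it was at 23.98, 21.4 and 22.5 CPM in Ctrl, 44.8, 40.6, 37.1 and 39.4 CPM in EEDcKO (log2 fold change 0.83, SE 0.15, edgeR adjusted p 0.00027) and 53.3, 56.04 and 46.8 CPM in AireEEDdKO (log2 fold change 1.20, SE 0.16, edgeR adjusted p 6.1e-06), and only the last passed 2-fold.

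Lef1 (chromosome 3, 131110471 to 131224356) was called in neonatal mTEChi in both comparisons that removed EED. It was at 15.2, 13.9, 16.5, 23.8 and 19.9 CPM in neonatal Ctrl, 27.9, 60.8 and 60.4 CPM in EEDcKO (log2 fold change 1.48, SE 0.26, edgeR adjusted p 0.00018), 12.3, 28.9 and 23.2 CPM in AireKO (log2 fold change 0.25, SE 0.29, edgeR adjusted p 0.56) and 65.3, 58.9 and 65.8 CPM in AireEEDdKO (log2 fold change 1.55, SE 0.31, edgeR adjusted p 0.0012 against AireKO). EEDcKO and Ctrl did not overlap, nor did AireEEDdKO and AireKO. In neonatal mTEClo EEDcKO it was not called (57.2, 33.4, 31.3 and 31.8 CPM, log2 fold change 0.46, SE 0.28, edgeR adjusted p 0.22). In adult mTEChi it lay between 7.50 and 16.1 CPM (median 11.5) in WT and at 13.6, 15.96, 13.4 and 12.9 CPM in AireKO (log2 fold change 0.38, SE 0.19, edgeR adjusted p 0.091). In adult mTEClo it was called higher in AireKO (24.4, 22.5, 17.6 and 28.9 CPM against 9.19 to 14.02 CPM in WT, log2 fold change 1.01, SE 0.17, edgeR adjusted p 6.3e-05), a call lost in 6 of 12 refits that each dropped 1 library (0.86 to 1.14), without WT replicate 1, 2, 4 or 5 or AireKO replicate 1 or 4. All these AireKO libraries were male and 5 of the 8 WT libraries female. The Lef1 call was also lost with sex as a term and with male libraries only (0.94).

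Tcf7 (chromosome 11, 52252371 to 52283014), which encodes TCF1 and is best known from T cells, was one of the most abundant members in mTEChi. In adult mTEChi it lay between 118 and 147 CPM (median 128) in WT and at 317, 304, 206 and 235 CPM in AireKO (log2 fold change 1.02, SE 0.14, edgeR adjusted p 7.6e-07), with no overlap. This change sat at the 2-fold limit, and the call was lost in 4 of 11 refits that each dropped 1 library, without WT replicate 1 (0.998) or 7 (0.997) or AireKO replicate 1 (0.93) or 2 (0.95). In adult mTEClo it was at 35.2, 25.7, 22.3 and 13.1 CPM in AireKO against 6.56 to 14.4 CPM in WT (log2 fold change 1.15, SE 0.21, edgeR adjusted p 0.00015, 0.91 without AireKO replicate 1). In neonatal mTEChi it was at 145, 139, 158, 141 and 161 CPM in Ctrl and 296, 312 and 265 CPM in AireKO (log2 fold change 0.96, SE 0.25, edgeR adjusted p 0.0062), again with no overlap. Loss of EED left no called change in Tcf7, neither in mTEChi (log2 fold change 0.38, SE 0.25, edgeR adjusted p 0.27) nor in mTEClo (log2 fold change −0.28, SE 0.28, edgeR adjusted p 0.49). The summed level of 12 thymocyte genes was lower in adult mTEChi AireKO (41.1 to 53.9 CPM) than in WT (74.6 to 95.2 CPM), with 6 of 7 tested genes lower and none higher. In neonatal mTEChi it was 56.2 to 80.6 CPM in AireKO and 87.2 to 109 CPM in Ctrl (1 of 8 tested lower, none higher). The part of thymocytes in the Tcf7 levels was not tested.

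**Figure D5:**
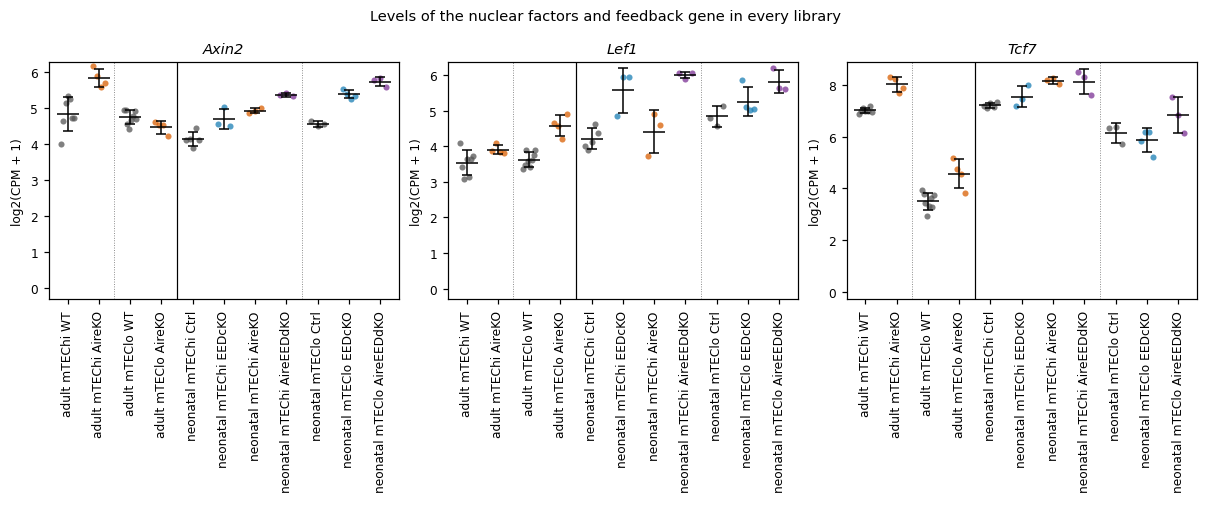
Levels of Axin2, Lef1 and Tcf7 in every library as log2(CPM + 1), by group, with bars for the mean and SD. Axin2 and Tcf7 stand higher in AireKO than in control mTEChi at both ages, and in neonatal mTEChi Lef1 stands higher in EEDcKO than in Ctrl and higher in AireEEDdKO than in AireKO.

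Of 50 other pathway genes, 49 were tested. In adult mTEChi AireKO 11 were lower and 3 higher (17.8% and 5.63% of all tested genes). In neonatal mTEChi AireKO 6 were lower and 1 higher (12.8% and 3.56% of all), and in adult mTEClo AireKO 1 was lower and 2 higher (3.88% and 4.42% of all), counts near those shares or below them. Wls, which carries Wnt proteins to the cell surface, fell from 143 ± 14.99 CPM (SD, n = 7) in adult mTEChi WT to 64.4 ± 16.4 CPM (SD, n = 4) in AireKO (log2 fold change −1.15, SE 0.12, edgeR adjusted p 4.7e-09), and Porcn, the acyltransferase that lipid-modifies Wnt proteins, fell too (log2 fold change −1.45, SE 0.51, edgeR adjusted p 0.017). The Wnt inhibitors Sost (−4.03 and −2.27), Notum (−2.18 and −3.03) and Apcdd1 (−1.65 and −1.96) were lower without Aire in adult and neonatal mTEChi (log2 fold changes). The receptor Ror1 was higher at both ages (1.45 and 1.13). With loss of EED none of the 49 was lower (5.4%, 6.22% and 2.78% of all tested genes), and 12 were higher in mTEChi, 13 in mTEClo and 9 in mTEChi without Aire (8.48%, 9.51% and 6.69% of all). Their median log2 fold changes were 0.70, 0.41 and 0.19. Ror2, a receptor for Wnt5a, had 2.81, 1.73, 1.93, 1.32 and 2.11 CPM in mTEChi Ctrl and 9.29, 18.4 and 6.60 CPM in EEDcKO (log2 fold change 2.61, SE 0.36, edgeR adjusted p 1.4e-05). It was higher in mTEClo (log2 fold change 3.35, SE 0.33, edgeR adjusted p 1.6e-07) and without Aire (log2 fold change 2.44, SE 0.51, edgeR adjusted p 0.0018). Porcn (1.66, 1.74 and 1.59), the feedback inhibitor Nkd1 (1.62, 1.70 and 2.40) and Apcdd1 (1.29, 1.23 and 2.01) were higher in the same order of comparisons. Wls was the pathway gene whose EED effect differed with Aire (log2 difference 1.11, SE 0.22, edgeR adjusted p 0.018).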

How the data were processed

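RNA was measured in 23 adult and 24 neonatal libraries. The authors deposited raw counts of reads, 1 value per Ensembl gene and library, with no normalization. Per the study's methods and the submitters' processing notes, the authors trimmed reads of full-length, RamDA-type libraries with fastp 0.20.0, mapped them to mm10 with STAR 2.7.3a, filtered with SAMtools 1.9, removed duplicates with Picard 2.21.1 and counted with HTSeq 0.11.2 without regard to strand. Duplicate removal in the absence of molecular identifiers may compress high counts, and genes whose exons overlap are uncertain. The annotation release is not given in the sources used here, and the deposited normalized tables were not used here. Coordinates and exon lengths come from the GRCm38 annotation.

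Groups came from the sample titles. Genes passed filterByExpr in edgeR 4.0.16 (R 4.3.3), TMM scaled the libraries, and the quasi-likelihood fit took in every group of a table (adult and neonatal apart). 2-sided tests of contrasts were adjusted by Benjamini-Hochberg over 19310 adult or 20196 neonatal genes. Biological coefficients of variation were 14.5% and 19.8%. CPM uses TMM-scaled sizes, fold changes a prior count of 0.125, errors of means are SD and errors of log2 fold changes SE. The script was tested on simulated data. Folds against a group at 0 use a floor of 3 counts over the group, and ratios to 1 to 3 counts carry exact 95% intervals, both for counting error only.

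Members and lists were chosen with earlier results of these data known. Full statistics are given for Axin2, Lef1 and Tcf7 and, per comparison, for up to 8 called members per direction with the largest change, provided that the higher group averaged 5 CPM or more. Any further member was picked with its values known. Where libraries of a member are said not to overlap, the share of all genes without overlap was not counted. Alternatives were RLE factors, library size alone, no filter or at least 10 counts, DESeq2 1.42.0, no minimum change, age, sex, library kind or replicate block as terms, male libraries only, only the groups compared, libraries without mitochondrial counts left out, and each library left out in turn. A comparison within libraries without mitochondrial counts was chosen after seeing the data. Same-numbered libraries deviated together (each correlation above 0.1) between adult AireKO fractions (0.139 to 0.222) and between neonatal mTEChi AireEEDdKO and AireKO (0.108 to 0.213), which the labels do not state. In the neonatal groups each replicate matched its own number best. Between the adult AireKO fractions replicates 1 and 2 matched 2 best, and replicates 3 and 4 matched 4 best. The former were 5 and the latter 6 weeks old, so number and age cannot be told apart there. RefSeq sequences were matched by symbol.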

Additional observations from a re-analysis of the deposited data

Results flagged for a closer look

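Of 170 pairs of a member and a group of 4 to 10 libraries with a mean of at least 5 CPM, 7 held a library far from the others by Dixon's criterion, which chance gives in about 1 in 20 groups. Wnt2b had 59.7 CPM in neonatal mTEChi Ctrl replicate 3 (38.8 to 42.2 in the others) and Fzd4 17.4 CPM in replicate 4 of that group (7.88 to 9.24). In neonatal mTEClo EEDcKO, replicate 1 had 95.6 CPM of Wnt4 (136 to 140.5 in the others) and 57.2 CPM of Lef1 (31.3 to 33.4), and replicate 3 had 16.2 CPM of Wnt8b (1.51 to 2.16) and 44.4 CPM of Wnt10b (24.5 to 25.9). Lgr4 had 147 CPM in adult mTEChi AireKO replicate 1 (126 to 129.7 in the others).

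The effect of Aire loss differed between adult mTEChi and mTEClo by edgeR's test of the difference in 17 members. The log2 difference (mTEChi minus mTEClo) was positive for Axin2 (1.23). It was negative for the ligands Wnt5a (−2.80), Wnt7a (−2.89), Wnt7b (−2.26), Wnt8b (−4.63) and Wnt9a (−1.46), for Rspo1 (−4.08), Rspo2 (−5.04), Rspo4 (−6.80) and Lgr6 (−5.55), for Fzd2 (−1.34), Fzd3 (−1.40) and Fzd4 (−2.39), and for Dkk2 (−3.33), Dkk3 (−1.40), Sfrp4 (−8.43) and Sfrp5 (−1.12). The fitted values of Rspo4 and Sfrp4 rest on a group at 0 counts and depend on the prior count. The R-spondins were also near 0 in mTEClo of both genotypes, so that their effect there is poorly estimated. Wnt7a lost this call in 13 of 23 refits that each dropped 1 library (−3.81 to −2.59) and Sfrp5 in 4 of 23 (−1.31 to −0.90), and Rspo2 and Rspo4 lost it in 2 of 23 and 2 of 23. The effect of EED loss differed between neonatal mTEChi and mTEClo in Lgr5 (−2.88) and Wnt5b (−3.76), with a smaller value in mTEChi.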

How the results depend on the processing

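The 13 counts of called members kept within 1.5 times their value under most alternatives, with these exceptions. For loss of Aire in adult mTEChi (19 calls), 10 were called with at least 10 counts required in every library of a group, where fewer genes are tested, and 12 with library kind as a term. For adult mTEClo AireKO (3 calls) it was 5 without the libraries lacking mitochondrial counts and 6 with no minimum change. For the EED effect in mTEChi minus mTEClo (2 calls) it was 1 with library size alone, 1 (Lgr5) with age and 1 (Lgr5) with sex as a term. With the replicate block it was 1, Wnt4 in the opposite direction, and neither Lgr5 (adjusted p 0.082) nor Wnt5b (0.16) was called. For the EED effect without minus with Aire (0 calls) it was 1 with no filter and 2 by DESeq2. The cause was not tested where none is named. Leaving out each library in turn gave 8 to 19 calls for neonatal Ctrl mTEChi against mTEClo (main 18, with 8 without mTEClo Ctrl replicate 3), 0 to 2 for the EED effect between fractions and 0 to 1 for the EED effect by Aire, and stayed within 1.5 times of the main count in the other 10 comparisons. Of 4300 alternative values over 211 results for single genes, 4079 kept direction and side of the threshold, 212 lost the call, 9 gained one and 0 changed sign, and 139 of 184 called results kept their call whichever library was left out. The replicate block gave 22 and 15 calls in the comparisons whose same-numbered libraries deviated together and changed no call there. In the others same-numbered libraries did not all deviate together, and the block gave 18 calls for loss of Aire in adult mTEChi, 15 for loss of EED in mTEChi and 14 for neonatal Ctrl fractions. Scaling by library size alone moved the median of all genes to −0.18 in adult and in neonatal mTEChi AireKO, −0.13 between AireKO fractions, −0.20 for the adult difference of Aire effects and 0.12 for the EED effect by Aire. It changed the share of all calls that were higher from 24.1% to 15.5% in adult and from 21.7% to 10.4% in neonatal mTEChi AireKO, from 19.7% to 10.6% for the adult difference of Aire effects and from 64.4% to 77.0% for the EED effect by Aire. Tcf7 in adult mTEChi AireKO then had 0.85 and no call. Members with few counts (Rspo1 to Rspo4, Sfrp4, Wnt9a, Frzb) are limited by depth.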

Other observations

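Several member genes share exonic sequence with neighbouring annotated genes, and reads there cannot be assigned without strand. The shared part was 4.58% of exon bases in Wnt5a (Gm2670), 6.61% in Wnt7b (AU022754), 8.799% in Wnt11 (Gm8398), 13.1% in Rspo3 (Gm48159), 16.1% in Sfrp2 (Gm26771), 13.7% in Lef1 (Gm43352) and 3.796% in Axin2 (Gm11670). It was 17.8% in Fzd5 (Gm38058) and 3.15% in Fzd6 (Gm26704). In Rspo1, Rspo2, Rspo4, Lgr6, Wnt6, Wnt8b, Dkk1, Dkk2, Dkk3 and Tcf7 no exon base was shared.

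The sum of 6 muscle genes, found in muscle-like medullary cells, was 4953 to 7574 CPM in neonatal mTEChi AireKO and 2429.6 to 4797 CPM in Ctrl. Of these 6 genes 1 was called lower and none higher, so the sum does not stand for each gene. The sum of 6 tuft cell genes was 65.8 to 91.8 CPM in AireKO and 151 to 203 CPM in Ctrl (4 of 5 tested lower, none higher).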
